A study of Homo sapiens with 12 samples.

Results

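All 37 genes of the human mitochondrial genome were examined in RNA-seq libraries of HSC-3, an established line of human oral squamous carcinoma cells. They were taken by chromosome, as every count row annotated on chrM, and comprise 13 coding genes, 2 rRNAs and 22 tRNAs among 60675 gene rows. The 12 libraries fall into 3 groups of 4: cells left untreated, cells given 25 µM cyclopiazonic acid (CPA) for 3 h, and cells given CPA together with synta-66 for the same time. CPA is an inhibitor of SERCA, the pump that loads the endoplasmic reticulum with calcium, and synta-66 blocks the ORAI channels through which calcium enters a cell once that store is empty. No group received synta-66 alone. For synta-66, the dose was not given in the sources used here. The CPA libraries serve 2 of the 3 comparisons, and so do the libraries of each of the other groups, so the comparisons are not independent of each other.

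The mitochondrial genome is a small circle. Both of its strands are read as long precursor RNAs, from which the messengers and rRNAs are freed when the tRNAs lying between them are cut out. Its coding genes supply core subunits of complexes I, III, IV and V of the respiratory chain, and its rRNAs and tRNAs serve the organelle's own ribosome. By convention, most of the genes belong to the heavy-strand transcript. MT-ND6 and a minority of the tRNAs belong to the light-strand transcript. Mitochondria take up calcium released from the endoplasmic reticulum or entering from outside.

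The libraries held between 2819486 and 5458858 reads on genes, and 90.5% to 96.3% of the uniquely aligned reads lay on no annotated gene of the counted strand. The coding genes took 8229 to 18437 reads per library and the tRNAs 7680 to 17059, whereas the rRNAs took 5362 to 2921974. Many nuclear genes had few reads of their own and many at a feature on the other strand: GAPDH had 61 to 130 reads, against 85670 to 195069 at the feature opposite to it. KRT18, a keratin of simple epithelia, had 107 to 199 reads, and KRT8, which lies opposite, 19476 to 39587. KRT5, a keratin of squamous epithelia, had 35 to 128, EPCAM 0 to 14 and TP63, a defining squamous factor, 0 to 6. The fibroblast genes COL3A1, DCN, LUM and PDGFRB were at 0 in all 12 libraries, with COL1A1 at 0 to 5 and COL1A2 at 0 to 1. The immune gene CD68 had 3 to 38. As own counts can miss most reads of a gene, a low count does not show that a marker is absent. Most mitochondrial genes have no feature opposite to them. Each mitochondrial value below is therefore a count of reads assigned to a gene's annotated strand, and whether those reads came from the gene's own transcript or from RNA of the other strand was not tested. In these bulk libraries, fewer cells and less RNA per cell cannot be told apart.

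Untreated replicate 3 and replicates 1 and 4 of CPA with synta-66 stood apart. They had 3.73 to 8.36 alignments of reads that map to more than one place per uniquely aligned read, against 0.490 to 1.36 in the other 9 libraries. They also had the highest rRNA levels, at 66.1 to 116 mitochondrial rRNA reads per 100 nuclear gene reads, against 0.167 to 13.5. Their coding levels, at 0.364 to 0.442 reads per 100 nuclear gene reads, lay within or just below the 0.377 to 0.514 of the others. Calls that these 3 libraries change are given with and without them. Without them, 3 untreated, 4 CPA and 2 CPA with synta-66 libraries remain, and their part in the results below was otherwise not tested.

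Levels per gene length, in reads per kb per 1000000 nuclear gene reads, spanned several orders of magnitude in untreated cells. Both rRNAs were highest but varied most, MT-RNR1 at 94838 ± 122741 and MT-RNR2 at 93075 ± 110795 (SD, n = 4). The highest light-strand tRNAs came next: MT-TY, the tRNA for tyrosine, stood at 16744 ± 2767, MT-TP, for proline, at 12651 ± 2281, and MT-TC, for cysteine, at 6568 ± 883. By annotated strand, the 8 light-strand tRNAs together held 92.4% to 94.9% of all tRNA reads in every library. Whether those reads came from these tRNAs or from RNA of the other strand was not tested. The highest heavy-strand tRNA was MT-TT, for threonine, at 1530 ± 155, above the light-strand MT-TQ at 766 ± 212 and MT-TE at 625 ± 86.5. MT-TF, for phenylalanine, had 0 reads in all 12 libraries, which allows up to 11 to 18.7 reads per kb per 1000000 nuclear gene reads, a limit that covers counting error only. MT-TV, for valine, had 1 read in 1 library. These last 2 genes did not pass the filter on low counts, and the other 35 did. Because tRNAs are short and the counting of reads that span neighbouring genes was not stated, a tRNA's level per length is a rough value. The sequences below, from GENCODE 44 transcripts on GRCh38, are shown because they were the 3 tRNAs with the highest levels (MT-TY, MT-TP, MT-TC), those whose counts changed (MT-TE, MT-TI) and MT-TQ, which overlaps MT-TI. Each is written 5′ to 3′ on the gene's own strand, with capitals for the bases shared with a neighbouring gene.
MT-TY (chrM:5826-5891, light-strand transcript): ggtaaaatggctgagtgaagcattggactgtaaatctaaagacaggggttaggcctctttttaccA
MT-TC (chrM:5761-5826, light-strand transcript): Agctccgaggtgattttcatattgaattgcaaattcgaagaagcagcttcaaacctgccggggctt
MT-TP (chrM:15956-16023, light-strand transcript): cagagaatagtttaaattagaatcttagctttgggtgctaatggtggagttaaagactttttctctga
MT-TE (chrM:14674-14742, light-strand transcript): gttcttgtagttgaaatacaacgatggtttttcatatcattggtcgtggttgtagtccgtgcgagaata
MT-TI (chrM:4263-4331, heavy-strand transcript): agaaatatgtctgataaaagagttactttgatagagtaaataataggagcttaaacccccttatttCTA
MT-TQ (chrM:4329-4400, light-strand transcript): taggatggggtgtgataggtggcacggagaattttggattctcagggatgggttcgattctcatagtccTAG
MT-TI, for isoleucine, and MT-TQ, for glutamine, lie on opposite strands and share 3 bases. MT-TC and MT-TY share 1 base on the same strand.

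**Figure D1:**
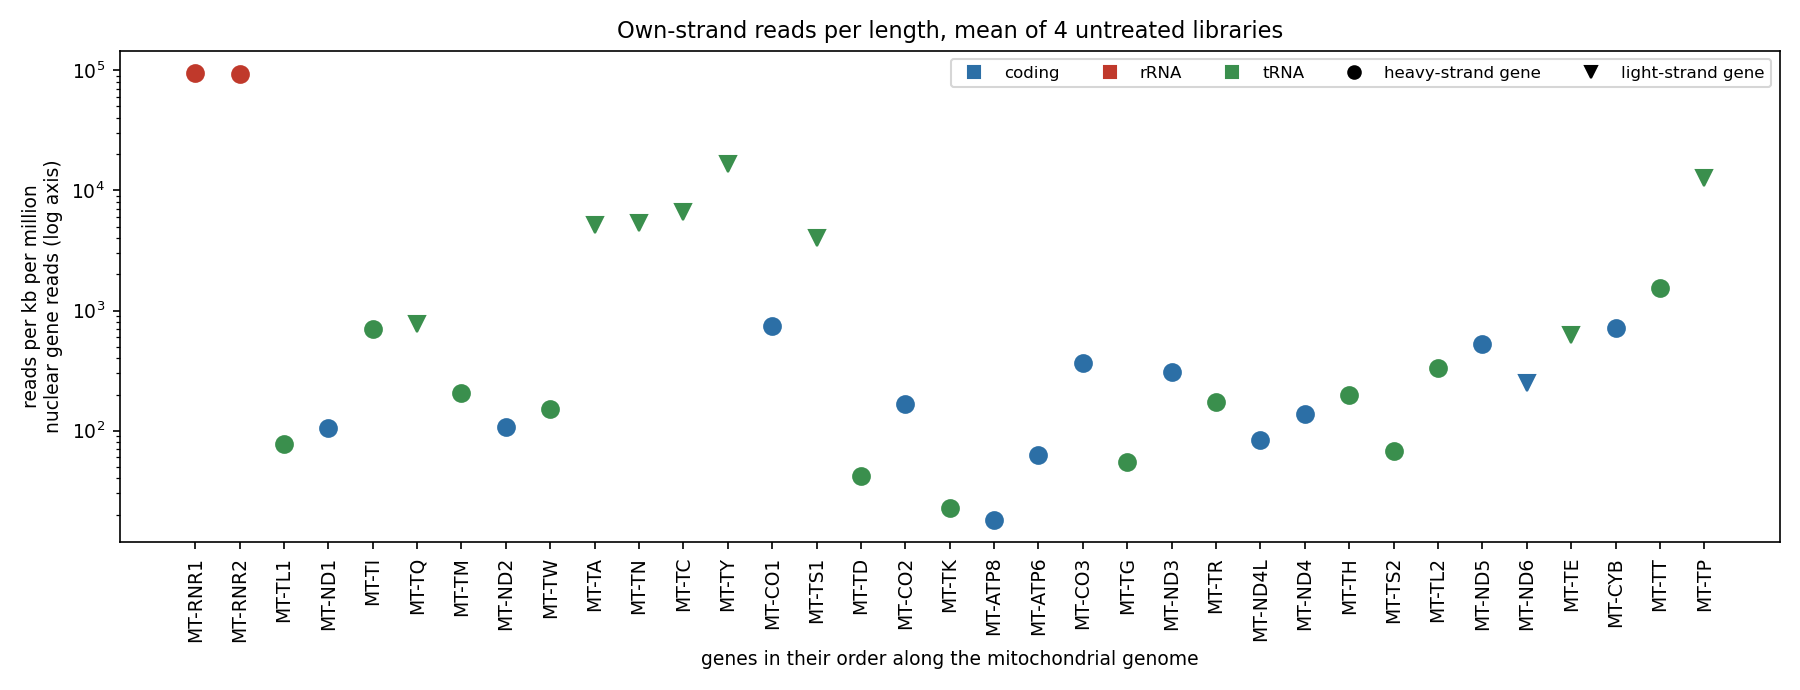
Own-strand reads per kb per 1000000 nuclear gene reads (log axis), as the mean of the 4 untreated libraries, for the 35 genes that passed the count filter, in genome order. The rRNAs lie near 94838 and 93075, most light-strand tRNAs (triangles) lie above all coding genes, and MT-ATP8 is the lowest coding gene at 18.1.

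Among the coding genes, MT-CO1, the catalytic subunit of cytochrome c oxidase (complex IV), had the highest level per length in untreated cells, 749 ± 19.2 reads per kb per 1000000 nuclear gene reads (SD, n = 4). MT-CYB, the cytochrome b of complex III, followed at 713 ± 52.4, a difference within their spread. MT-ND5, a proton-pumping subunit of complex I, came next at 523 ± 38.4, above MT-CO3 at 366 ± 30.3, MT-ND3 at 306 ± 26.5 and MT-ND6 at 250 ± 66.7. The next in order were MT-CO2 at 166 ± 18.1, MT-ND4 at 138 ± 18.7, MT-ND2 at 108 ± 7.44 and MT-ND1 at 104 ± 16.5. MT-CO2 and MT-ND4 lay within each other's spread, as did MT-ND2 and MT-ND1. MT-ND4L at 84.3 ± 15.5, MT-ATP6 at 63.1 ± 6.33 and MT-ATP8 at 18.1 ± 3.61 closed the order. MT-CO1, MT-ND5 and MT-CYB together held 62.6% to 74.0% of the coding reads of each library.

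The coding genes as a whole took a small share, and the highest library was 1.41-fold above the lowest. Per 100 nuclear gene reads, the untreated libraries had 0.403, 0.377, 0.421 and 0.411 coding reads. The CPA libraries had 0.433, 0.514, 0.479 and 0.467, all above the untreated ones. The libraries of CPA with synta-66 had 0.442, 0.406, 0.424 and 0.364, a range that overlaps both other groups. The group means were 0.403 ± 0.0187, 0.473 ± 0.0336 and 0.409 ± 0.0335 (SD, n = 4 each). In exact two-sided permutation tests over the 70 regroupings of 4 against 4, CPA differed from untreated at p = 0.0286, the smallest p the design allows. The same exact test gave p = 0.0571 for synta-66 added to CPA against CPA alone and p = 0.743 for it against untreated. After Benjamini-Hochberg adjustment over 15 such tests, these permutation p-values were 0.429, 0.429 and 0.796, so no difference passed. With this many tests, a single comparison whose groups are fully separated still has an adjusted p of 0.429, so the adjusted tests could hardly pass. Reads of the tRNAs per 100 nuclear gene reads ranged from 0.327 to 0.443 over all libraries, with overlapping groups and an adjusted permutation p of 0.429, 0.429 and 0.886 in the exact tests.

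**Figure D2:**
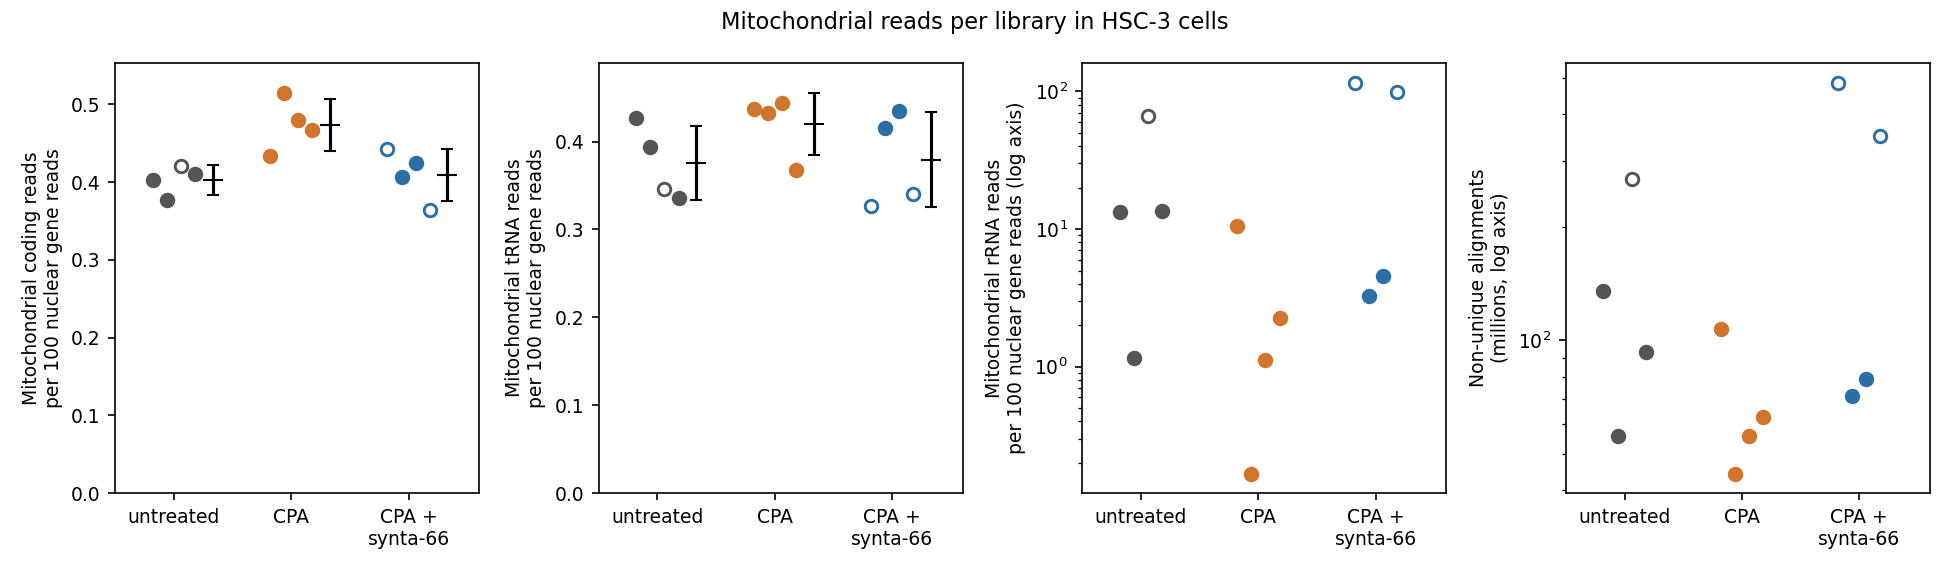
Each panel plots 1 value per library by group: mitochondrial coding, tRNA and rRNA reads per 100 nuclear gene reads, and alignments of reads mapping to more than one place (the last 2 on log axes). Open circles are the 3 libraries richest in such alignments and bars are mean ± SD. Coding reads of the 4 CPA libraries (0.433 to 0.514) lie above the untreated ones (0.377 to 0.421), whereas rRNA reads range from 0.167 to 116 and are highest in the open circles.

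The makeup of the coding reads was described as a share of those reads. Complex IV genes (MT-CO1, MT-CO2, MT-CO3) took 38.7% ± 1.97 of them in untreated cells, 43.2% ± 0.948 under CPA and 43.4% ± 5.79 under CPA with synta-66 (SD, n = 4 each). Complex I genes (the 7 MT-ND genes) took 40.0% ± 1.39, 36.4% ± 1.97 and 37.9% ± 6.22. Complex V genes (MT-ATP6, MT-ATP8) took 1.16% ± 0.0852, 1.81% ± 0.233 and 1.61% ± 0.169, and MT-CYB, the sole complex III gene, 20.2% ± 0.595, 18.6% ± 2.04 and 17.0% ± 0.854. Of the 13 shares, 3 were higher in all 4 CPA libraries than in all 4 untreated ones (MT-CO2, MT-ATP6, MT-CO3) and 2 were lower (MT-ND2, MT-ND5). With synta-66 against CPA, 3 were higher without overlap and 0 lower. With synta-66 against untreated, 4 were higher and 1 lower (MT-CYB). Such shares exist only for these 13 genes, so no rate over all genes can be set beside these counts. The share of MT-ND2 was 2.67% to 3.00% in untreated cells, 1.84% to 2.28% under CPA and 2.75% to 3.39% with synta-66 added. The share of MT-ND5 was 22.9% to 24.3%, then 17.97% to 20.6%, then 16.6% to 23.3%. Shares of a fixed total move together, so a lower share does not show a lower level.

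CPA against untreated cells asked how counts on each gene's annotated strand differ once the calcium store is emptied. Whether those reads came from the transcripts of the genes named was not tested. Under CPA, counts rose for 4 of the 13 coding genes, which encode complex IV (MT-CO2, MT-CO3), complex V (MT-ATP6) and complex I (MT-ND4), and for 1 tRNA, MT-TE. Counts of both rRNAs were called lower. Genes were called at an adjusted p below 0.05 (edgeR, quasi-likelihood) with a change of 1.5-fold or more. In all, 5 of the 35 tested mitochondrial genes were called higher, against 1.8% of the 14911 genes tested, and 2 lower, against 1.05%. Levels in CPM (counts scaled by TMM to a library of 1000000 reads) did not overlap between the groups for 9 of the 35, all higher under CPA. Over all genes tested, 5.7% were higher without overlap and 4.65% lower.

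In complex IV, MT-CO2, the subunit that takes electrons from cytochrome c, stood at 85.4, 73.6, 100.3 and 90.2 CPM in untreated cells and at 138, 183, 145 and 147 under CPA. Every CPA library lay above every untreated one, and the log2 fold change was 0.81 ± 0.12 (SE; adjusted p = 4.49e-06). MT-CO3, a structural core subunit, stood at 217, 200.02, 230.3 and 231 CPM untreated and at 330.1, 475, 324 and 355 under CPA, again with no overlap (0.76 ± 0.10, adjusted p = 9.60e-07). MT-CO1 stood at 861, 911, 948 and 823 CPM untreated and at 994, 1014, 1154 and 1136 under CPA. It passed the p threshold (adjusted p = 0.0124) but its log2 fold change of 0.28 ± 0.07 was under the 1.5-fold limit. The 3 complex IV genes thus differed in size of change, MT-CO1 having the smallest, although the difference between genes was not tested.

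In complex V, MT-ATP6, the subunit that forms the proton path of ATP synthase, stood at 35.0, 28.0, 35.6 and 33.1 CPM in untreated cells and at 52.9, 76.0, 61.4 and 55.9 under CPA. The groups did not overlap, with a log2 fold change of 0.91 ± 0.15 (adjusted p = 6.52e-05). MT-ATP8, a small accessory subunit, rested on 9 to 30 reads per library. It stood at 2.498 to 3.52 CPM untreated and 4.30 to 6.74 under CPA, without overlap, and at 0.99 ± 0.40 was not called (adjusted p = 0.195). The 2 genes overlap by 46 bases, 22.2% of MT-ATP8, which makes their counts uncertain to that extent. The junction (chrM:8497-8602, GRCh38, heavy-strand transcript) is shown with the shared bases in capitals.
MT-ATP8/MT-ATP6: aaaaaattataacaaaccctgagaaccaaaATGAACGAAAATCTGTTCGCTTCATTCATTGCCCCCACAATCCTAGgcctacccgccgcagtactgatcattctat

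In complex I, MT-ND4, a proton-pumping subunit, stood at 138, 125, 187 and 134 CPM in untreated cells and at 216, 249, 234 and 196 under CPA. The groups did not overlap, at 0.62 ± 0.13 (adjusted p = 0.00175). This call is close to the fold limit: without CPA replicate 2, untreated replicate 2 or untreated replicate 4 the log2 fold change was 0.57, 0.55 and 0.58, each under the limit. The neighbouring MT-ND4L, which overlaps MT-ND4 by 7 bases, was at 0.52 ± 0.22 and MT-ND3 at 0.35 ± 0.12, neither called (adjusted p = 0.219 and 0.0909). MT-ND1 was at -0.07 ± 0.13, MT-ND2 at -0.17 ± 0.11 and MT-ND5 at -0.05 ± 0.11. Those 3 had overlapping groups, as had MT-CYB of complex III at 0.14 ± 0.08 (adjusted p = 0.491).

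Along the genome, the genes with the highest log2 fold changes under CPA were neighbours: MT-CO2, MT-ATP8, MT-ATP6 and MT-CO3 follow one another, at 0.81, 0.99, 0.91 and 0.76. MT-CO1, MT-ND3, MT-ND4L, MT-ND4 and MT-ND6 were between 0.28 and 0.62, and MT-ND1, MT-ND2, MT-ND5 and MT-CYB between -0.17 and 0.14. The median over the 13 coding genes was 0.47, against -0.01 over all genes tested. This order is a description, and no test of position was made. Without the 3 libraries that stood apart, the calls of MT-CO2 (0.89), MT-CO3 (0.79), MT-ATP6 (0.95), MT-ND4 (0.76) and MT-TE (0.79) remained. The count of called genes was again 7, of which 5 were shared, since both rRNAs were lost and MT-ND6 and MT-TS1 gained. Scaling by total count, which the rRNA reads enter, put the median of all genes at 0.16 and left neither the coding calls nor that of MT-TE, with adjusted p from 0.376 (MT-ATP6) to 0.773 (MT-ND4). Relative to that median the log2 fold changes were 0.94 for MT-ATP6, 0.85 for MT-CO2, 0.78 for MT-CO3 and 0.67 for MT-ND4.

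**Figure D3:**
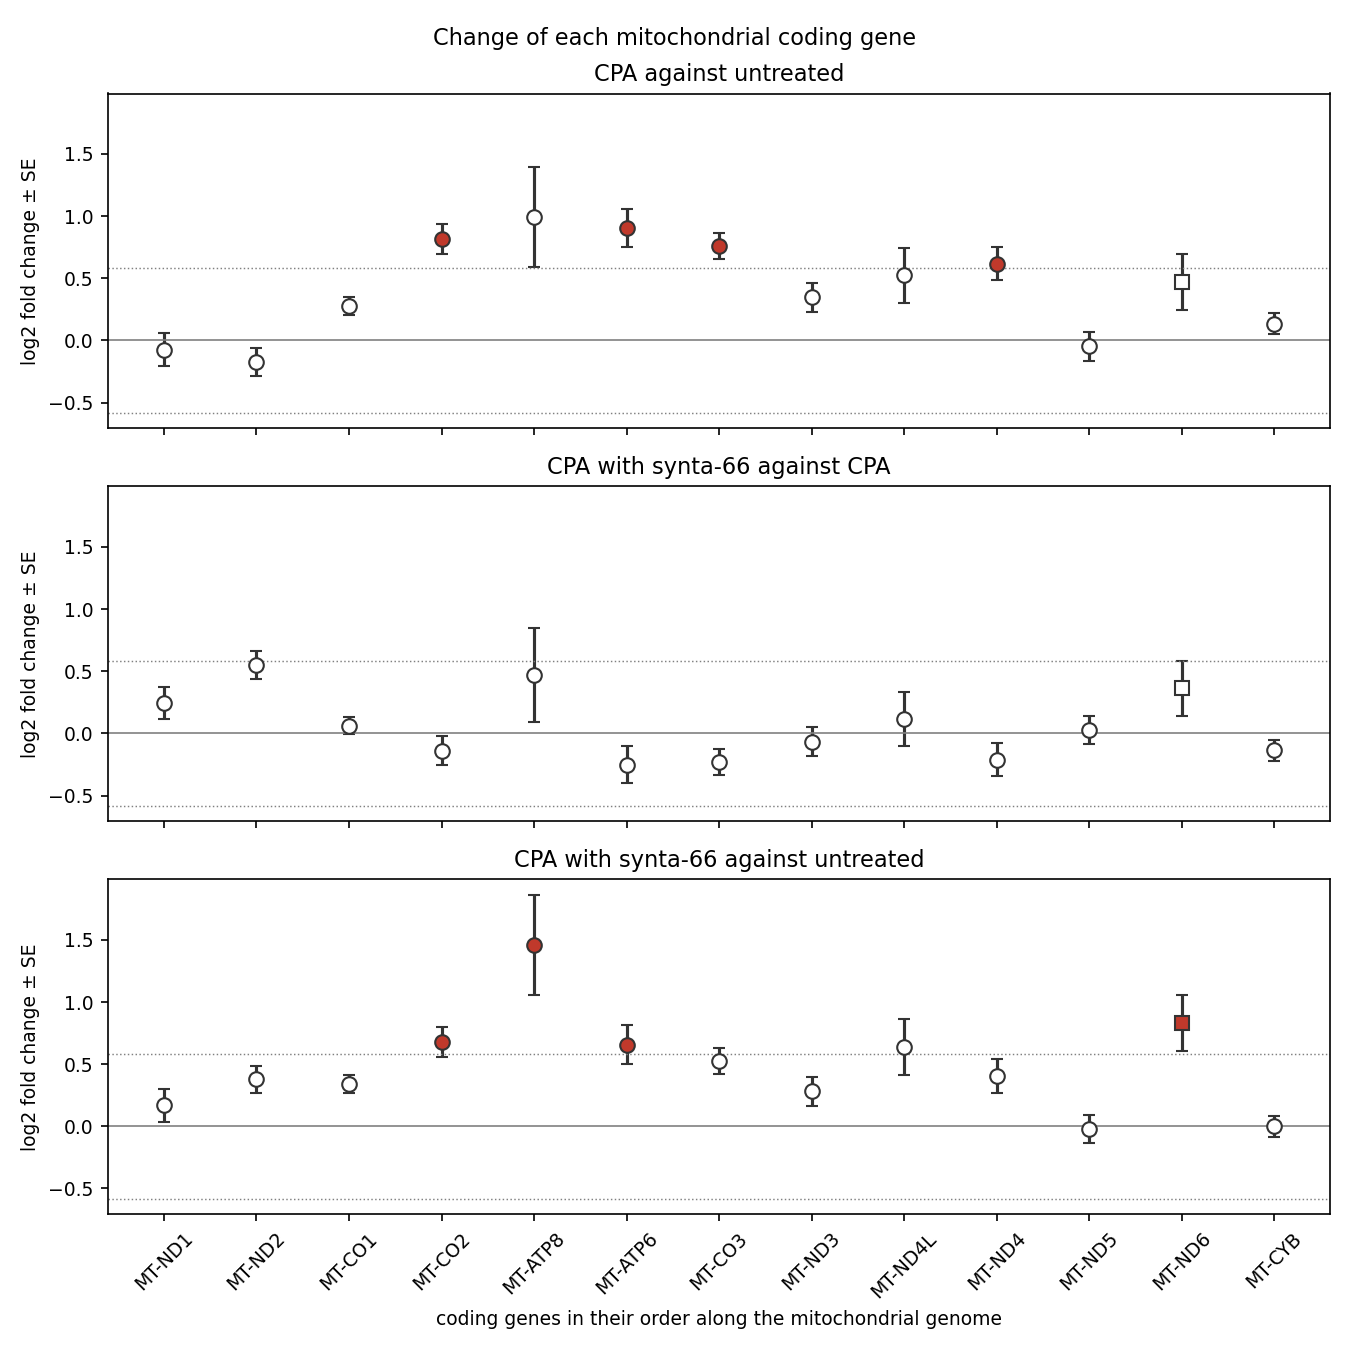
Log2 fold change ± SE of each coding gene in genome order, in the 3 comparisons, from edgeR on 12 libraries. Filled points were called (adjusted p under 0.05 and at least 1.5-fold, dotted lines), and the square is light-strand MT-ND6. Under CPA the called genes are MT-CO2, MT-ATP6, MT-CO3 and MT-ND4, and no coding gene was called for CPA with synta-66 against CPA.

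The comparison of CPA with synta-66 against CPA asked which of these values change when ORAI channels are also blocked. No coding gene was called: edgeR called 0 of 13, with 2 at an unadjusted p under 0.05 (MT-ND2, MT-CO3), and DESeq2 also called 0. MT-ND2, a core subunit of complex I, stood at 79.5, 81.1, 69.6 and 75.3 CPM under CPA and at 128, 107, 114 and 98.3 with synta-66. Every library with synta-66 lay above every CPA library, and the adjusted p was 0.000610, but the log2 fold change of 0.55 ± 0.11 stayed under the 1.5-fold limit. Without replicate 4 of CPA with synta-66 it was 0.60 and was called. The median of the 13 coding genes was 0.03 here, against -0.04 over all genes. Scaling by total count put the median of all genes at -0.60 and MT-ND2 at -0.02, which is 0.58 above that median.

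The coding genes called under CPA were not called in the opposite direction when synta-66 was added. MT-CO2 stood at 163, 107, 157 and 131 CPM with synta-66 (log2 fold change against CPA -0.14 ± 0.12, adjusted p = 0.593). MT-CO3 stood at 394, 283, 290 and 300 CPM (-0.23 ± 0.10, adjusted p = 0.193). MT-ATP6 stood at 71.4, 49.8, 43.7 and 43.1 CPM (-0.25 ± 0.15, adjusted p = 0.396). In each of these 3 genes, replicate 1 of CPA with synta-66 was the highest of its group. MT-ND4 stood at 284, 162, 145 and 186 CPM (-0.21 ± 0.13, adjusted p = 0.412). Without the 3 libraries that stood apart, MT-ND4 was at -0.58 ± 0.12 (adjusted p = 0.000626) and MT-CO3 at -0.41 ± 0.12 (adjusted p = 0.0265), each under the fold limit and resting on 2 libraries with synta-66.

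Of the 35 genes tested, 3 were called higher with synta-66 than under CPA alone, both rRNAs and MT-TI, against 1.94% of all genes tested. Called lower were 0 by edgeR and 0 by DESeq2, against 2.82% over all genes by edgeR, and MT-CO3 alone was lower at an unadjusted p under 0.05. Only MT-ND2 and MT-TI were higher without overlap, against 5.46% of all genes, and no member was lower without overlap, against 6.84%. MT-TI stood at 42.3, 30.8, 32.8 and 42.8 CPM in untreated cells, at 29.7, 35.1, 27.0 and 26.1 under CPA and at 40.6, 47.3, 48.6 and 59.2 with synta-66. The difference between the last 2 groups was 0.73 ± 0.16 (adjusted p = 0.00163) and 0.67 without the 3 libraries (adjusted p = 0.0246). Under total count scaling it was 0.16 and not called (adjusted p = 0.833), which is 0.76 above the median of all genes under that scaling.

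**Figure D4:**
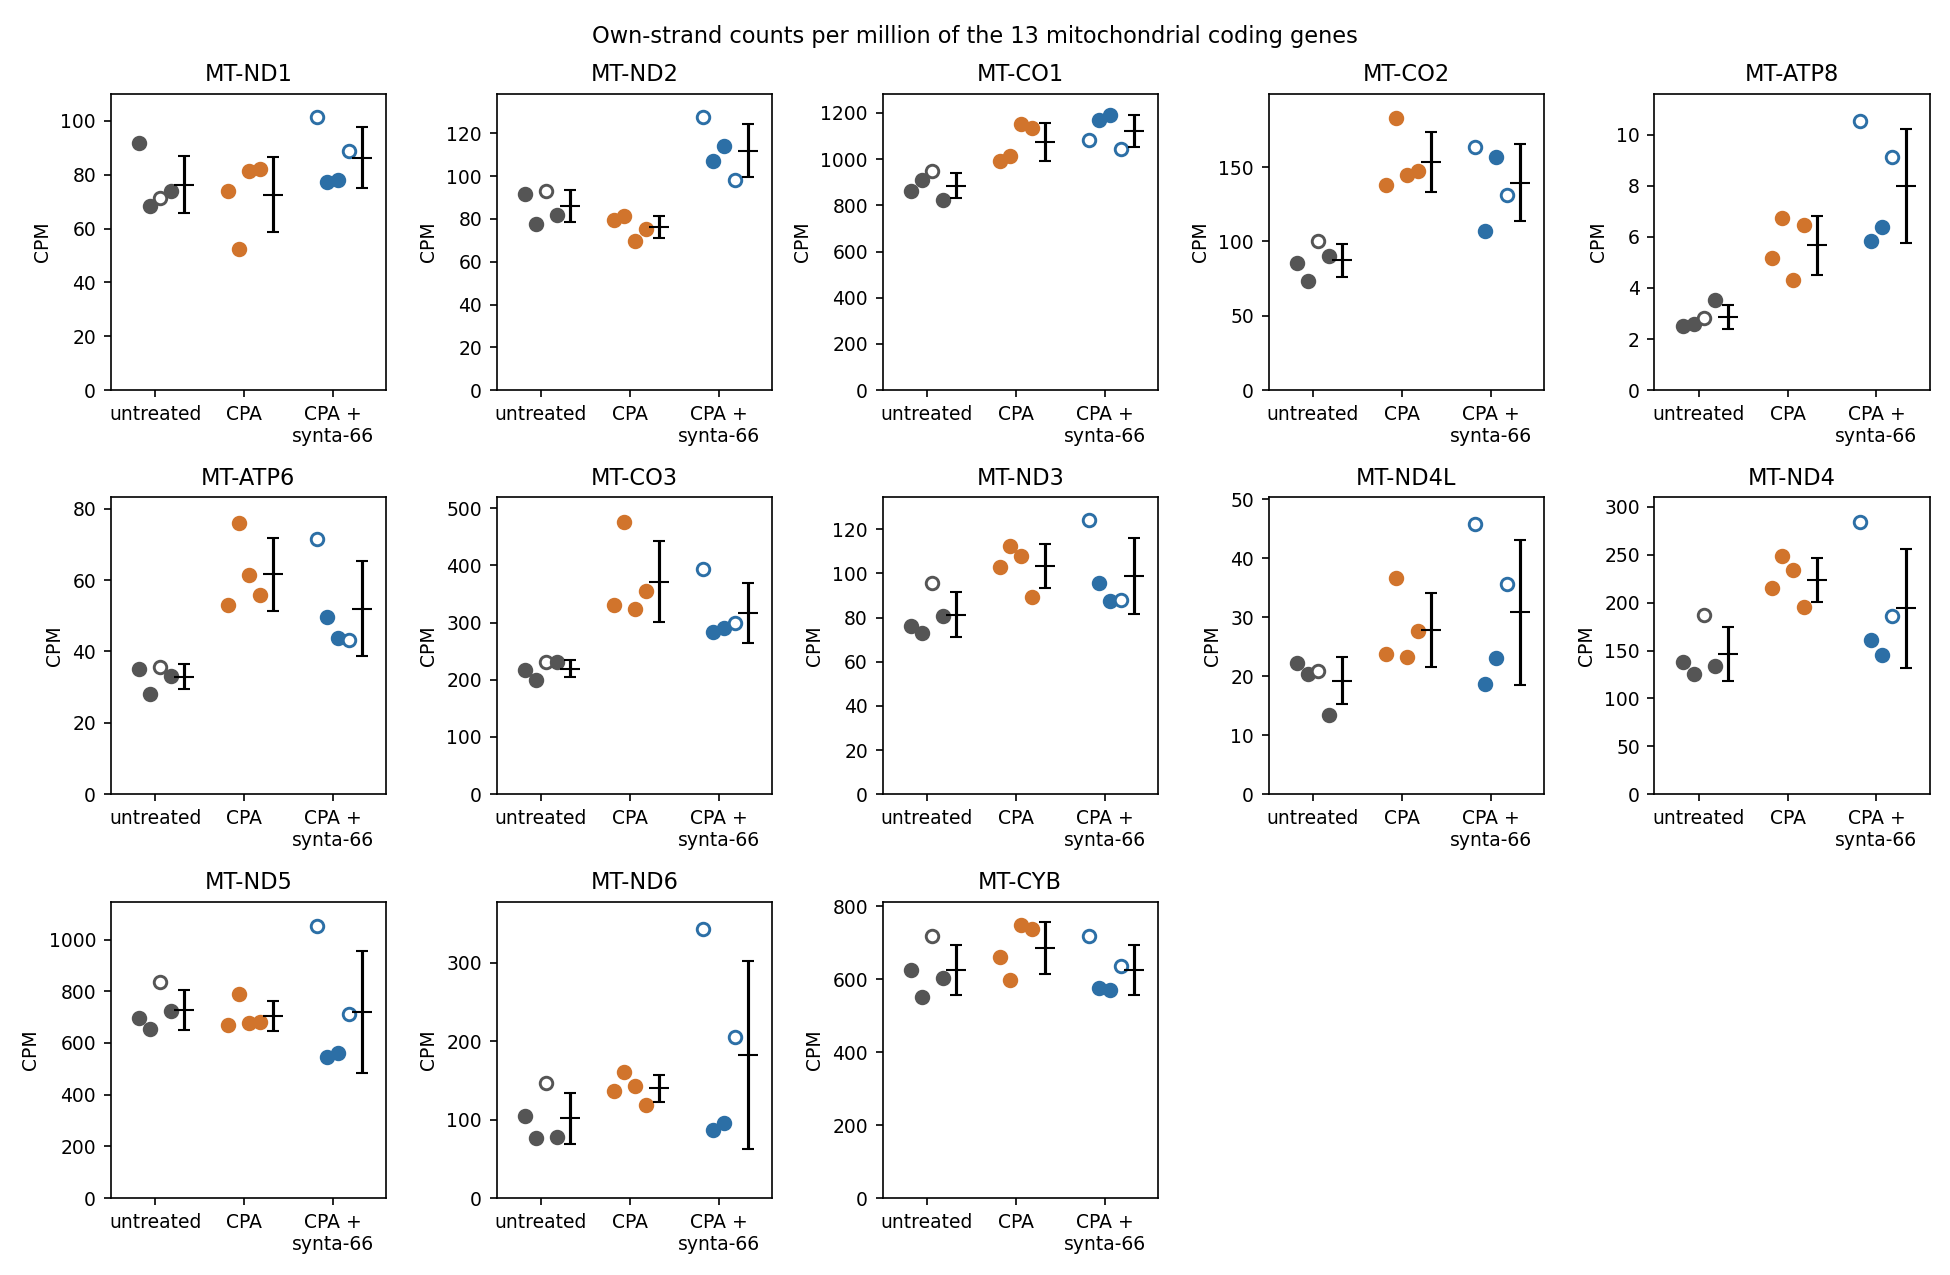
CPM of each coding gene by library and group, with bars for mean ± SD (n = 4) and open circles for the 3 libraries richest in alignments that are not unique. MT-CO2 is at 73.6 to 100.3 in untreated cells and at 138 to 183 under CPA, MT-ND2 is highest with synta-66 (98.3 to 128), and the MT-ND6 values of CPA with synta-66 run from 86.3 to 343.

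CPA with synta-66 against untreated cells gave 4 calls, all coding genes and all higher, against 1.66% of all genes called higher and 1.24% called lower. Levels without overlap were seen for 6 coding genes, all higher, against 4.55% higher and 4.65% lower over all genes. MT-CO2 was higher by 0.68 ± 0.12 (adjusted p = 0.000144), with no overlap between 73.6 to 100.3 CPM and 107 to 163 CPM, and remained so without the 3 libraries (0.64, adjusted p = 0.00373). MT-ATP6 was higher by 0.66 ± 0.16 (adjusted p = 0.00710), which became 0.52 without the 3 libraries (adjusted p = 0.155), 0.48 without replicate 1 of CPA with synta-66 (adjusted p = 0.0957) and 0.58 without untreated replicate 2. MT-ATP8, at 5.86 to 10.5 CPM with synta-66, was higher by 1.46 ± 0.40 (adjusted p = 0.0260). Its call ended without replicate 1 or 4 of CPA with synta-66 or without untreated replicate 1, 2 or 3, with adjusted p from 0.0519 to 0.100. It was at 1.07 ± 0.53 and not called without the 3 libraries (adjusted p = 0.388).

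MT-CO3 (0.53 ± 0.10, adjusted p = 0.000595), MT-CO1 (0.34 ± 0.07, adjusted p = 0.00146) and MT-ND2 (0.38 ± 0.11, adjusted p = 0.0395) passed the p threshold and not the fold. MT-CYB at 0.00 ± 0.09 and MT-ND5 at -0.02 ± 0.11 differed by less than their SE. Without the 3 libraries MT-ND5 was at -0.35 ± 0.10 against untreated (adjusted p = 0.0336) and at -0.38 ± 0.09 against CPA (adjusted p = 0.00663), each under the fold limit. The 2 remaining libraries with synta-66 held 546 and 561 CPM of it, against 654 to 722 in the 3 untreated ones. The median of the 13 coding genes was 0.41, against -0.06 over all genes. Total count scaling, which put the median of all genes at -0.45, left none of the 4 calls (adjusted p from 0.541 for MT-ATP8 to 0.848 for MT-ND6). Under it MT-CO2 was 0.73 above that median, and MT-CO1 and MT-ND2, at -0.01 each, were 0.45 above it. Whether the changes of MT-CO2 and MT-ATP6 differ between CPA with and without synta-66 is what the previous comparison tests, and neither difference passed.

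MT-ND6, the light-strand gene of a complex I subunit, had values that depended on single libraries. It stood at 105, 76.4, 147 and 77.9 CPM in untreated cells, at 137, 161, 143 and 118 under CPA and at 343, 86.3, 96.1 and 205 with synta-66. The highest untreated value and the 2 highest values with synta-66 came from the 3 libraries with the most rRNA, and the groups overlapped. As a share of the coding reads it took 3.24% ± 0.753, 3.78% ± 0.421 and 4.70% ± 2.39 (SD, n = 4 each). No difference between those shares passed in the exact permutation tests (adjusted p = 0.471, 0.607 and 0.471). The difference in share between synta-66 added to CPA and CPA alone was 0.922 percentage points, and -1.04 without the 3 libraries. In the fit over all genes, MT-ND6 was called higher for CPA with synta-66 against untreated (0.83 ± 0.23, adjusted p = 0.0235), and not called for CPA against untreated (0.47 ± 0.22, adjusted p = 0.310) or with synta-66 against CPA (0.36 ± 0.22, adjusted p = 0.407).

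Without the 3 libraries these MT-ND6 values changed. CPA against untreated became 0.70 ± 0.12 and was called (adjusted p = 5.93e-05). CPA with synta-66 against untreated became 0.05 ± 0.15 (adjusted p = 0.945), and against CPA it turned to -0.65 ± 0.14 and was called lower (adjusted p = 0.00131). Leaving out 1 library at a time ended the call against untreated for replicates 1 and 4 of CPA with synta-66 and for untreated replicates 1, 2 and 4. The lowest of those values was 0.33, without replicate 1 of CPA with synta-66 (adjusted p = 0.461). On all libraries, DESeq2 did not make this call (adjusted p = 0.294), nor did edgeR with its own filterByExpr count filter (adjusted p = 0.0510). It was also not made by edgeR on the 2 groups alone (adjusted p = 0.0614).

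**Figure D5:**
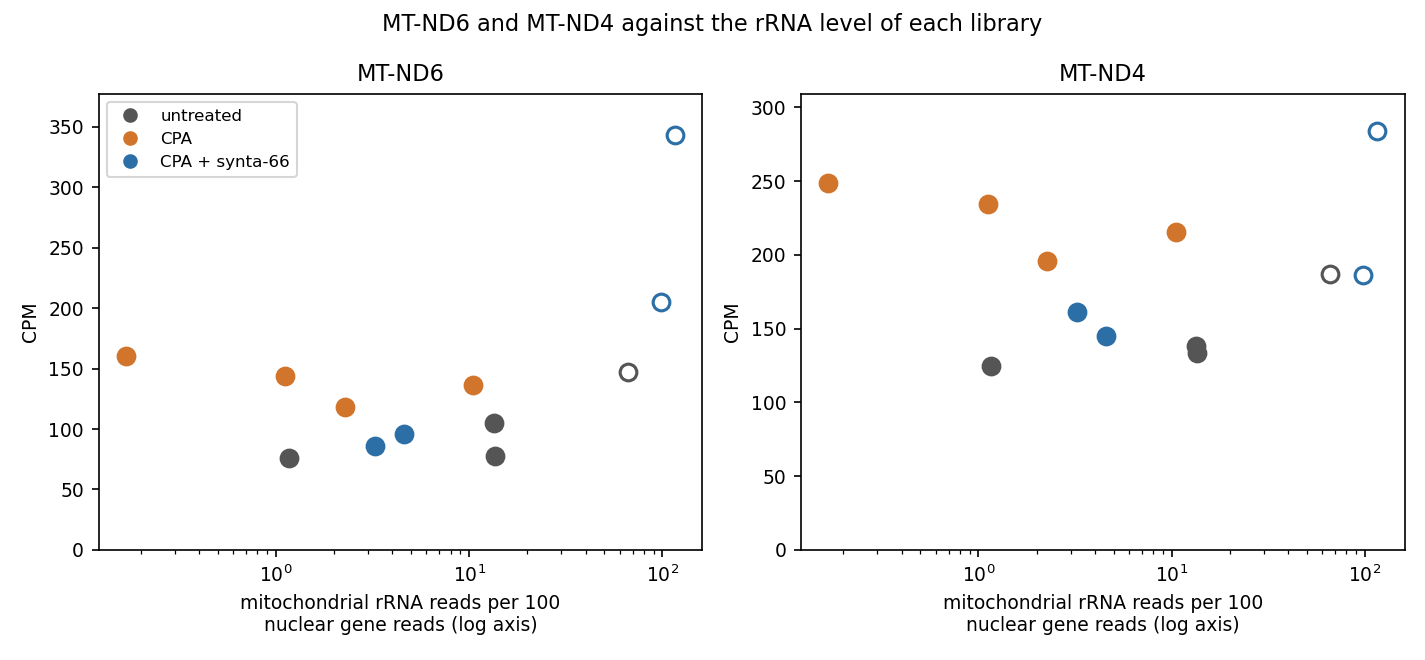
MT-ND6 (left) and MT-ND4 (right) in CPM for each library, against its mitochondrial rRNA reads per 100 nuclear gene reads (log axis), with open circles for the 3 libraries richest in alignments that are not unique. The 2 highest MT-ND6 values, 343 and 205, are the open circles of CPA with synta-66, whose other 2 libraries are at 86.3 and 96.1.

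The rRNAs, the structural RNAs of the small (MT-RNR1) and large (MT-RNR2) mitochondrial ribosomal subunits, varied widely within each group. Per 100 nuclear gene reads, both together made up 13.4, 1.16, 66.1 and 13.5 in untreated cells, 10.5, 0.167, 1.12 and 2.28 under CPA and 116, 3.25, 4.59 and 98.4 with synta-66. Every pair of groups overlapped, and the highest library was 694-fold above the lowest. In exact two-sided permutation tests p was 0.0857 for CPA against untreated, 0.171 for synta-66 added to CPA against CPA alone and 0.371 for it against untreated (adjusted 0.429, 0.429 and 0.506). The ratio of the rRNAs to each other was steadier: MT-RNR1 made up 28.1% to 39.8% of their reads in every library. Whether the labelled total RNA was depleted of rRNA or selected for poly(A) before sequencing was not given in the sources used here.

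The fit over all genes nevertheless called both rRNAs lower under CPA, MT-RNR1 by a log2 fold change of -3.004 ± 0.85 (adjusted p = 0.0276) and MT-RNR2 by -2.61 ± 0.80 (adjusted p = 0.0485). Both calls ended without CPA replicate 2, 3 or 4 or untreated replicate 3, and that of MT-RNR2 also without untreated replicate 1 or replicate 4 of CPA with synta-66. Without untreated replicate 3, the values were -1.42 and -1.24. Under DESeq2 neither was called (adjusted p = 0.151 and 0.206). With synta-66 against CPA they were called higher, by 4.47 ± 0.91 and 4.21 ± 0.85 (adjusted p = 0.000659 for both). Without the 3 libraries that difference was 0.10 and 0.13 (adjusted p = 0.959 and 0.944). Against untreated, CPA with synta-66 was at 1.46 ± 0.80 and 1.60 ± 0.77, neither called, and both were called at 3.05 and 2.97 without untreated replicate 3. Without all 3 libraries the values were -1.31 and -1.10, again not called.

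Among the tRNAs, 1 of 20 tested was called under CPA: MT-TE, the light-strand tRNA for glutamate, which lies beside MT-ND6. It stood at 36.2, 34.8, 36.9 and 24.9 CPM in untreated cells, at 51.9, 73.5, 52.8 and 43.4 under CPA and at 65.7, 32.2, 28.0 and 48.3 with synta-66. Every CPA library lay above every untreated one (0.73 ± 0.19, adjusted p = 0.0116), and without CPA replicate 2 the value was 0.57 and not called (adjusted p = 0.100). MT-TE with synta-66 against CPA was at -0.38 ± 0.19 (adjusted p = 0.266), at -0.64 without replicate 1 of CPA with synta-66 (adjusted p = 0.0300) and at -0.91 without the 3 libraries (adjusted p = 0.00206), both called. MT-TN, the tRNA for asparagine, passed the p threshold under CPA at 0.37 ± 0.10 (adjusted p = 0.0133) without reaching the fold, as did MT-TY and MT-TC with synta-66 against untreated, at 0.37 and 0.35. The most abundant tRNA, MT-TY, stood between 756 and 1263 CPM in all 12 libraries.

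Nuclear genes that serve the mitochondrion were read from 6 lists of 226 genes: transcription and replication of mitochondrial DNA, RNA processing and decay, respiratory chain subunits, calcium uptake, biogenesis and stress, and ribosomal proteins. By their own counts 141 were tested. Such counts carry the strand limit described above for GAPDH. Whether the changes below are those of each gene's transcript was not tested. The list medians under CPA were between -0.23 and -0.10 on the log2 scale, against -0.01 over all genes. Under CPA, 2 of them were called higher and 0 lower, with 11 at an unadjusted p under 0.05 and 2 and 0 calls by DESeq2. Against the 1.8% and 1.05% of all genes called higher and lower, these counts are near the background. With synta-66 against CPA, 1 was called higher and 2 lower (1.94% and 2.82% over all genes), and with synta-66 against untreated 2 higher and 1 lower (1.66% and 1.24%). NDUFB9, an accessory complex I subunit, rose from 57.2 ± 6.41 to 115 ± 12.7 CPM (SD, n = 4 each; log2 fold change 1.01 ± 0.12, adjusted p = 2.56e-08) and fell with synta-66 to 52.8 ± 2.74 (-1.12 ± 0.12, adjusted p = 3.35e-09). MRPL49, a protein of the large mitochondrial ribosomal subunit, rose from 15.4 ± 3.22 to 32.1 ± 10.1 CPM (adjusted p = 0.000324), but it overlaps SYVN1 on the other strand by 356 bases. Overlaps were listed only where exons of exactly 1 coding gene lay opposite by at least 30 bases. NDUFB9 and the other genes named without an overlap are thus not shown to be free of one.

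With synta-66 against CPA, NDUFA1, another complex I subunit, was higher (52.7 ± 11.2 to 90.6 ± 11.4 CPM, adjusted p = 5.09e-05). VDAC2, a channel of the outer membrane, was lower, from 7.96 ± 2.76 to 2.83 ± 1.35 CPM (adjusted p = 0.0216). Against untreated, NDUFA1 and MRPL49 were higher and MCUB, a subunit of the calcium uniporter, lower (adjusted p = 0.0464). MCUB overlaps CASP6 on the other strand by 98 bases. In the lists of transcription and RNA processing genes, edgeR and DESeq2 called 0 of 12 and 0 of 16 by own counts in each comparison. At most 2 per list had an unadjusted p under 0.05. Own counts can miss most reads of a nuclear gene, so these 0 calls do not show that the genes were unchanged. Only 5 genes of each list could be tested at the feature on the other strand, with 0 called. Over all 6 lists, 57 genes could be tested with that feature read in place of the gene. Of these 1 was called, GABPB1-AS1 opposite GABPB1, a subunit of a factor that drives respiratory genes, higher by 0.65 ± 0.13 with synta-66 against CPA (adjusted p = 0.000796). Over all genes, 1.94% were called higher in that comparison, so 1 of 57 is near the background. In each other comparison 0 of the 57 were called. Nuclear copies of mitochondrial genes, which could share reads with them, held 92 to 299 reads per library.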

How the data were processed

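Total RNA of 12 HSC-3 samples was sequenced as paired reads. Per the labels' protocols, the authors trimmed reads with Trimmomatic (0.32; the submitters' processing notes name 0.36), aligned them with STAR 2.5.2a to GRCh38 with the Ensembl 84 annotation and counted reads per gene with HTSeq 0.6.1p1, taking the library as stranded. The library kit was not given in the sources used here. Raw counts for each Ensembl gene ID are what the authors deposited. GENCODE 44 supplied names, strands and positions for 56558 of the 60675 gene IDs, and 4117 were not matched and were counted as nuclear. The closing rows of each file that name no gene stayed out of library sizes and tests.

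Genes with at least 5 reads in 2 libraries of a group, 14911 in all, were tested with edgeR 4.0.16 (TMM, quasi-likelihood, 3 groups in 1 fit, Benjamini-Hochberg over all genes tested). A call needed an adjusted p under 0.05 and a 1.5-fold change. The fit was checked on simulated data for CPA against untreated, CPA with synta-66 against CPA and CPA with synta-66 against untreated. Of 50 genes changed 1.5-fold it recovered 7, 7 and 5, of 50 changed 2-fold 19, 16 and 20, and of 50 changed 8-fold 41, 39 and 40. False calls numbered 1, 4 and 8. A gene that was not called may thus still have changed. Each SE was derived from the log2 fold change and its F statistic. Shares were compared by exact permutation tests in SciPy 1.17.1. Alternatives were DESeq2 1.42.0, other scalings and filters, a replicate block and leaving out libraries. All 37 genes were to be described, tRNAs being named where called or extreme per length, and up to 4 called genes per nuclear list whose mean reached 1 CPM. Members and lists were chosen with earlier results of these data known. Nothing in the labels places the libraries in separate cultures. The spread behind each p-value is thus that between libraries, and it may be technical.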

Additional observations from a re-analysis of the deposited data

Results flagged for a closer look

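Of 66 groups of 4 values examined, 4 held a library far from the other 3 of its group by Dixon's ratio, and chance alone flags about 1 group in 20. The tRNA reads of CPA replicate 4 were 0.368 per 100 nuclear gene reads, against 0.432 to 0.443 in the other CPA libraries. MT-RNR1 stood at 218400 CPM in untreated replicate 3, against 2827 to 36204 in the others, and this library is 1 of the 3 with the most alignments that are not unique. MT-CO3 stood at 393.9 CPM in replicate 1 of CPA with synta-66, against 283 to 300 in the others of that group. MT-ND5 stood at 788.9 CPM in CPA replicate 2, against 669 to 679 in the other CPA libraries.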

How the results depend on the processing

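RLE, upper-quartile and nuclear-only TMM scaling kept all 7, 3 and 4 mitochondrial calls of CPA against untreated, CPA with synta-66 against CPA and CPA with synta-66 against untreated. DESeq2 and edgeR's filterByExpr each gave 5, 3 and 3, and edgeR on 2 groups at a time gave 7, 3 and 3. Without the count filter edgeR gave 7, 3 and 6. In the last comparison MT-ATP8 was then lost, and MT-ND4L and both rRNAs were gained. Total count scaling in edgeR gave 2, 2 and 0, and dropping the fold limit gave 9, 4 and 9. Leaving out 1 library at a time gave 3 to 7 calls in the first comparison (3 without CPA replicate 2) and 1 to 5 in the last (1 without untreated replicate 2 or replicate 1 of CPA with synta-66, 2 without untreated replicate 1 or replicate 4 of CPA with synta-66). Without the 3 libraries richest in alignments that are not unique, an alternative added after seeing the data, the last comparison had 1 call, and MT-ND6 with synta-66 against CPA reversed to -0.65. With the replicate block, the same genes were called (7, 3 and 4). Same-number libraries correlated at -0.02 to 0.05 over 12 pairs, so the numbers were not taken to pair samples. The cause of these changes was not tested. MT-ATP8 rests on 9 to 30 reads per library, which limits its precision.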
